A study of Mus musculus with 12 samples.

Results

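The 36 genes described here are the stress response that runs through the transcription factor ATF4, together with serine and amino acid metabolism. They were taken by gene symbol from a list, which was drawn up with earlier results of these data known, out of 55450 genes in the deposited tables. All 36 were among the 13636 genes that passed the filter on low counts. By role they fall into 16 stress regulators and effectors, 8 enzymes of serine and one-carbon metabolism, 6 other amino acid enzymes and 6 amino acid transporters.

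RNA was prepared from cultured CD8 T cells of the pmel-1 mouse strain, whose transgenic T cell receptor recognises a gp100 peptide found in melanoma. These cells had a wild-type Ucp2 gene, were stimulated in culture and expanded in IL-2 at 10 ng/ml for 4 days. They formed 4 groups of 3 libraries: vehicle (the culture medium), genipin, NAC (N-acetylcysteine), and genipin with NAC, called both compounds below. Genipin is a plant compound used as an inhibitor of the mitochondrial carrier UCP2, and NAC is a thiol antioxidant and a source of cysteine. The labels offer peptide or antibodies to CD3 and CD28 as the stimulus without saying which was used, and the sources used here give no dose of either compound. Whether a group's 3 libraries are separate mice, separate cultures or repeats is also not said, so each p-value reflects the spread among these libraries alone, and that spread may be technical.

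ATF4 is made when kinases such as GCN2, which senses uncharged tRNA, and PERK, which senses misfolded protein in the endoplasmic reticulum, phosphorylate the translation factor eIF2. General translation then falls while ATF4 is translated better, and ATF4, paired with C/EBP proteins, raises genes for amino acid synthesis, amino acid uptake, tRNA charging and feedback inhibitors. In activated T cells the serine, glycine and folate pathway supplies nucleotide synthesis, and transporters such as LAT1 (Slc7a5 with Slc3a2) supply essential amino acids for growth.

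Library totals ran from 20838894 to 31098648 expected counts. The CD8 T cell markers Cd3d, Cd3e, Cd3g, Cd8a, Cd8b1, Cd2 and Thy1 summed to between 3445 and 4346 CPM (read counts scaled to a common library total) in the 12 libraries, highest with both compounds (4323 to 4346). Markers of other cell types had low sums: 0.938 to 11.6 CPM for the 5 B cell markers, 7.28 to 43.4 for the 5 myeloid markers and 38.6 to 69.8 for the 4 CD4 T cell markers. These sums moved with the groups: the B cell and CD4 sums were highest with NAC, and the myeloid sum, mostly Itgam, was highest with both compounds (40.4 to 43.4 CPM). The CD4 sum was mostly Zbtb7b, with means of 39.7 CPM with vehicle, 39.8 with genipin, 55.2 with both and 61.9 with NAC. Cd4 itself had 95 counts with vehicle, 26 with genipin, 201 with both and 381 with NAC. Foxp3 and Cd40lg had at most 34 counts over the 3 libraries of any group. The 5 mast cell and neutrophil markers, nearly all Cpa3 and Mcpt8, summed to 28.7 to 30.5 CPM with genipin, 13.6 to 15.3 with vehicle, 16.6 to 19.0 with both and 4.32 to 4.95 with NAC. The 4 natural killer markers were mostly Klrk1 and Eomes, which activated CD8 T cells also express. The 4 summed to 328 to 338 CPM with vehicle, 340 to 352 with genipin, 297 to 317 with both and 236 to 242 with NAC. With genipin the mean of Klrk1 fell from 262 to 227 CPM, while that of Eomes rose from 67.8 to 111. Ncr1 had 5 counts with vehicle, 161 with genipin, 11 with both and 0 with NAC. Klrb1c had 231, 625, 452 and 129 in that order. Dendritic (4.07 CPM at most), stromal (2.27) and erythroid (0.907) sums were low. The defining genes Lyz2, Csf1r and Adgre1 (myeloid) and Ms4a1, Cd79a and Pax5 (B cell) had between 0 and 14 counts over the 3 libraries of any group. The other markers of those lists were expressed and moved: Cd79b, nearly all of the B cell sum, had 200 counts with vehicle, 101 with genipin, 454 with both and 723 with NAC, and Cd14 had 122, 238, 173 and 43 in that order. Their part in the results was not tested, and in bulk RNA fewer cells of a type and less RNA per cell cannot be told apart. Replicate 1 with both compounds stood apart from its group: the chi-square per degree of freedom over genes was 6.77 and 7.75 against replicates 2 and 3, which gave 2.08 against each other, while other groups gave 2.18 to 2.89. Without that library both compounds against vehicle gave 10 members higher and 18 lower, and the other counts of members below moved by at most 1.

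Levels between genes are compared here on the deposited TPM scale, which accounts for transcript length. With vehicle, Atf4 had the highest mean of the 36 genes (315 TPM), followed by the first serine enzyme Phgdh (287 TPM) and then Slc3a2 (169 TPM) and Ddit4 (167 TPM). Serine enzymes spanned 26.9 TPM (Shmt1) to 287 TPM (Phgdh). Other amino acid enzymes spanned 2.55 TPM (Cth) to 80.6 TPM (Asns), and transporters 4.69 TPM (Slc1a4) to 169 TPM (Slc3a2). The lowest was Vldlr at 0.21 TPM. All values by library from here on are CPM, which compare a gene between libraries and not one gene with another, and fold changes are log2 ± standard error (SE) with 3 libraries per group.

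Genipin lowered most of the module and NAC raised most of it. A gene was called at an adjusted p under 0.05 in the quasi-likelihood test of edgeR, adjusted after Benjamini and Hochberg over all tested genes. With genipin against vehicle, 28 of 36 members were lower and 4 higher, while 61.0% of all tested genes were called, 31.0% lower and 29.9% higher. The median log2 fold change of the members was -0.57, against -0.00788 over all tested genes. With NAC against vehicle, 26 members were higher and 4 lower, with 59.7% of all genes called (29.6% higher, 30.0% lower), and the medians were 0.52 and -0.00526. Because most genes were called in every comparison, the direction and the size say more here than the number called. A called fall of at least 2-fold with genipin was found for 13 members and 6.69% of all genes, and a rise of that size for 0 members and 3.11% of all genes. With NAC, 7 members and 6.04% of all genes had a called rise of at least 2-fold, and 0 members and 3.88% of all genes a fall.

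Both compounds together left the module split by role. Against vehicle, 10 members were higher and 19 lower (57.4% of all genes called, 28.5% higher and 28.9% lower), with a median of -0.23 against 0.00484. The stress genes were mostly higher (9 higher, 4 lower, median 0.19), while all 8 serine enzymes were lower (median -0.45). Of the transporters 4 were lower and 1 higher (median -0.22), and of the other amino acid enzymes 3 were lower and 3 not called (median -0.23). At 2-fold or more 1 member was called higher (Vldlr) and 1 lower (Atf3), against 5.38% and 2.57% of all genes. Genipin, NAC and both compounds are all set against the same 3 vehicle libraries, so their values stand side by side and are not independent of each other.

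**Figure D1:**
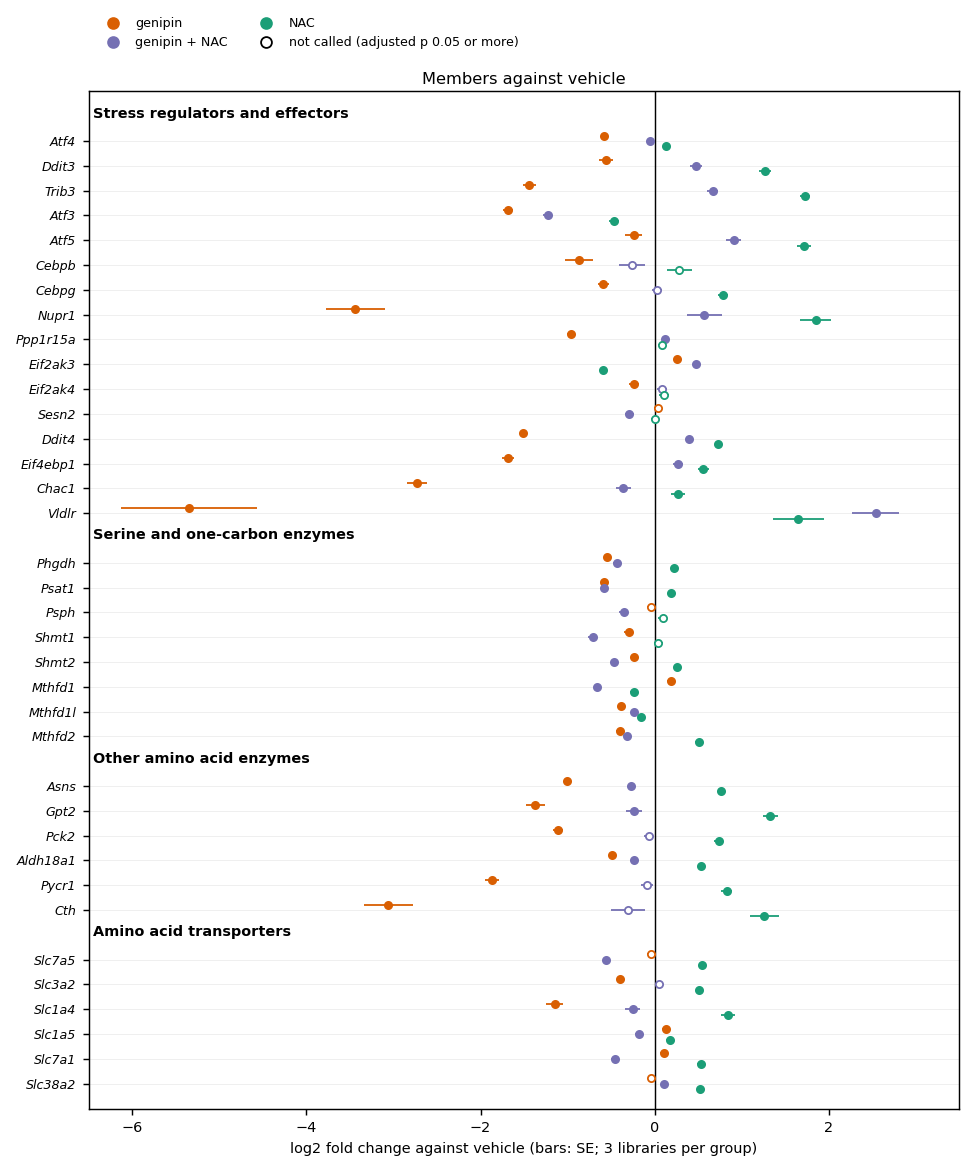
Log2 fold change against vehicle for the 36 genes, grouped by role, with genipin in orange, both compounds in purple and NAC in green (bars are SE, 3 libraries per group; open points were not called at adjusted p 0.05). Orange points lie left of 0 for most stress genes and for all 6 other amino acid enzymes, green points lie right of 0 for 26 called genes, and the purple points of all 8 serine enzymes lie left of 0.

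Adding NAC to genipin and adding genipin to NAC were each compared directly. Both compounds against genipin raised 26 members and lowered 8 (69.3% of all genes called, 35.0% higher and 34.3% lower), with 15 of 16 stress genes and 6 of 6 other amino acid enzymes higher. Their medians were 1.06 and 1.09, while serine enzymes (2 higher, 4 lower, median -0.11) and transporters (3 higher, 3 lower, median -0.0776) were split. Rises of at least 2-fold were called for 13 members and 10.5% of all genes, and such falls for 0 members and 4.08% of all genes. Both compounds against NAC lowered 32 members and raised 2 (53.1% of all genes called, 26.5% lower and 26.6% higher), with medians of -0.74 for the members and 0.0087 for all genes. All 8 serine enzymes, 6 of 6 other enzymes and 6 of 6 transporters were lower in that comparison, as were 12 of 16 stress genes. Falls of at least 2-fold were called for 7 members and 2.47% of all genes, and such rises for 1 member (Eif2ak3) and 3.43% of all genes.

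Atf4 (ENSMUSG00000042406.8, mm10 chromosome 15, 80255184 to 80257541) encodes the central transcription factor. It measured 439, 440 and 446 CPM in vehicle, 293, 297 and 298 under genipin, 421, 423 and 427 under both and 482, 488 and 483 under NAC. The genipin libraries were the lowest and the NAC libraries the highest, without overlap between any groups. A lack of overlap is common here and does not mark a gene out. It held against vehicle for 66.7% of all tested genes with genipin, 65.9% with NAC and 60.7% with both compounds. Genipin lowered the transcript (-0.58 ± 0.025, adjusted p = 3.3e-14) and NAC raised it slightly (0.13 ± 0.025, adjusted p = 9.81e-05). With both compounds the difference from vehicle was -0.0591 ± 0.025 (adjusted p = 0.0495), a call that was lost when any of the 12 libraries was left out (adjusted p from 0.0527 to 0.158). ATF4 is controlled largely through translation, so its transcript does not measure the protein.

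The partner and neighbour factors did not move as a block. Ddit3 (CHOP, a C/EBP factor of the endoplasmic reticulum stress response, chromosome 10, 127290774 to 127296288) measured 20.5, 23.7 and 21.6 CPM in vehicle, 13.0, 15.3 and 16.3 under genipin, 28.6, 31.0 and 31.8 under both and 54.2, 52.5 and 52.0 under NAC. The groups did not overlap, and the order was genipin, vehicle, both compounds, NAC. Its changes against vehicle were -0.56 ± 0.078 for genipin, 1.27 ± 0.07 for NAC and 0.48 ± 0.072 for both. The annotated end of Ddit3 overlaps Mars on the opposite strand. The kit keeps strand, but whether the counting used it is not given in the sources used here, so a part of these reads may belong to Mars. Cebpg, which pairs with ATF4, kept the same order except that both compounds (24.9, 25.3 and 23.3 CPM) overlapped vehicle (24.5, 23.4 and 24.0), with 15.1, 16.2 and 16.5 with genipin and 42.4, 41.7 and 39.6 with NAC. The low-level Cebpb (C/EBP beta) fell with genipin, from 3.42, 3.51 and 4.0 to 1.86, 2.05 and 2.08 CPM (-0.87 ± 0.16), and was not called with NAC (0.28 ± 0.14, adjusted p = 0.0892) or both (-0.26 ± 0.15, adjusted p = 0.143).

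Atf3 and Atf5, both stress-responsive factors of the ATF family, went opposite ways under NAC. Atf3 (chromosome 1, 191170296 to 191218039) measured 53.7, 51.1 and 52.4 CPM in vehicle, 37.8, 37.1 and 38.8 under NAC, 23.0, 21.4 and 22.7 under both and 17.1, 16.7 and 15.4 under genipin. Every treated group lay below vehicle without overlap (genipin -1.68 ± 0.057, NAC -0.47 ± 0.052, both -1.23 ± 0.054). Atf5 measured 8.2, 6.93 and 7.61 CPM in vehicle, 6.53, 6.88 and 5.87 under genipin, 13.3, 14.9 and 14.5 under both and 25.3, 23.4 and 25.5 under NAC. It rose with NAC (1.71 ± 0.08) and with both (0.91 ± 0.085), and NAC libraries were the highest. Its genipin value was -0.24 ± 0.1 (adjusted p = 0.033), and this call was lost without vehicle replicate 1 (-0.18, adjusted p = 0.144), vehicle replicate 3 (-0.24, adjusted p = 0.0754), genipin replicate 1 (-0.26, adjusted p = 0.0538) or genipin replicate 3 (-0.18, adjusted p = 0.162), and was not made by DESeq2 (adjusted p = 0.0687) or limma-voom (adjusted p = 0.0612).

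The kinase gene Eif2ak3, which encodes PERK (ENSMUSG00000031668.14, chromosome 6, 70844515 to 70905245), moved opposite to most of the module, higher with genipin and lower with NAC. It measured 139, 134 and 141 CPM in vehicle, 165, 164 and 165 under genipin, 198, 188 and 188 under both and 92.8, 92.4 and 88.9 under NAC. The groups did not overlap: it was lowest with NAC alone and highest with both. Against vehicle it rose with genipin (0.25 ± 0.032), fell with NAC (-0.59 ± 0.033) and rose with both (0.47 ± 0.032). It was also 1 of the 2 members higher with both compounds than with NAC (1.07 ± 0.033, 2.09-fold), the other being Vldlr. Eif2ak4, which encodes GCN2, measured 43.1, 43.9 and 40.7 CPM with vehicle and 39.0, 32.6 and 36.4 with genipin, a fall of 0.24 ± 0.058 on the log2 scale. Its values of 45.2, 44.8 and 45.5 under both and 47.2, 43.3 and 46.9 under NAC were not called against vehicle (adjusted p = 0.202 and 0.117).

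Ppp1r15a (GADD34, chromosome 7, 45522916 to 45526268) encodes the stress-induced subunit that directs a phosphatase to eIF2. It measured 80.2, 79.4 and 76.2 CPM in vehicle, 40.1, 41.8 and 39.3 under genipin, 83.9, 85.5 and 86.6 under both and 87.2, 83.0 and 79.2 under NAC. The genipin libraries lay below all others, at 0.514-fold of vehicle (-0.96 ± 0.043, adjusted p = 3.92e-14). Libraries with both compounds lay slightly above vehicle without overlap, and the NAC libraries overlapped each of those groups. The NAC value was not called (0.0801 ± 0.04, adjusted p = 0.0899), nor was both compounds against NAC (0.0399 ± 0.04, adjusted p = 0.419). Both compounds against vehicle gave 0.12 ± 0.04 (adjusted p = 0.0136), which did not hold with vehicle replicate 3 left out (0.0985, adjusted p = 0.0748).

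Among the effectors, Trib3, Chac1, Ddit4 and Eif4ebp1 shared the deep fall with genipin. Trib3 (chromosome 2, 152337422 to 152344032), a pseudokinase that restrains ATF4 signalling, measured 20.0, 19.2 and 20.9 CPM in vehicle, 7.08, 7.1 and 7.95 under genipin, 30.5, 32.6 and 32.1 under both and 66.4, 68.8 and 63.7 under NAC. It fell under genipin (-1.44 ± 0.072) and rose under NAC (1.73 ± 0.057, 3.31-fold) and under both (0.66 ± 0.06). Its 4 groups kept the order seen for Ddit3. Ddit4 (REDD1, an inhibitor of the growth kinase mTORC1, chromosome 10, 59949669 to 59951834) kept it too, with 242, 237 and 233 CPM in vehicle, 78.7, 82.2 and 88.4 under genipin, 300, 315 and 317 under both and 395, 397 and 388 under NAC. Its fold changes against vehicle were -1.51 ± 0.037, 0.73 ± 0.034 with NAC and 0.39 ± 0.035 with both.

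Chac1 and Eif4ebp1 lay on opposite sides of vehicle with both compounds. Chac1 (ENSMUSG00000027313.3, chromosome 2, 119351229 to 119354381), an enzyme that breaks down glutathione, measured 19.6, 20.2 and 18.1 CPM in vehicle, 2.59, 3.48 and 2.7 under genipin, 13.9, 16.0 and 15.2 under both and 24.6, 24.1 and 20.8 under NAC. With genipin it was at 0.151-fold of vehicle (-2.73 ± 0.11), and with both compounds it was still below vehicle without overlap (-0.36 ± 0.083). Eif4ebp1 (4E-BP1, a repressor of cap-dependent translation, chromosome 8, 27260329 to 27276674) measured 53.9, 59.2 and 57.5 CPM in vehicle, 17.6, 17.9 and 17.6 under genipin, 59.5, 71.3 and 74.1 under both and 84.0, 83.8 and 84.1 under NAC. With both compounds it lay above vehicle (0.27 ± 0.058), and replicate 1 of that group was its lowest library.

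Sesn2, a leucine sensor that holds back mTORC1, did not follow the other effectors. It measured 91.9, 102 and 96.1 CPM in vehicle, 97.2, 101 and 99.7 under genipin, 102, 98.7 and 90.5 under NAC and 72.4, 81.5 and 82.7 under both. The first 3 groups overlapped and the group with both compounds lay below all of them (-0.29 ± 0.05 against vehicle, adjusted p = 4.24e-05). Genipin (0.0386 ± 0.049, adjusted p = 0.518) and NAC (0.00452 ± 0.049, adjusted p = 0.946) were not called.

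Nupr1 and Vldlr had the fewest reads of the stress genes with genipin. Nupr1, a small stress-induced chromatin protein, measured 1.94, 1.54 and 2.21 CPM in vehicle, 0.348, 0.0893 and 0.0729 under genipin, 3.14, 2.79 and 2.61 under both and 7.54, 6.76 and 6.4 under NAC. The genipin group held 13 counts against 145 with vehicle, a ratio of vehicle to genipin of 11.2 (95% interval 6.33 to 21.5, counting error only). Its value for both compounds against vehicle (0.57 ± 0.2, adjusted p = 0.0194) did not hold with vehicle replicate 2 (0.44, adjusted p = 0.0926) or replicate 1 of both compounds (0.49, adjusted p = 0.0566) left out. Vldlr, a lipoprotein receptor, had 1 count over the 3 genipin libraries against 56 with vehicle, 173 with NAC and 330 with both compounds. By library it measured 0.253, 1.04 and 0.893 CPM in vehicle, 0.0, 0.0447 and 0.0 under genipin, 4.69, 4.37 and 3.89 under both and 2.25, 2.57 and 2.13 under NAC. The ratio of vehicle to genipin was 56.0 (95% interval 9.65 to 2250, counting error only), so its size is poorly fixed. Vldlr was highest with both compounds, not with NAC alone.

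**Figure D2:**
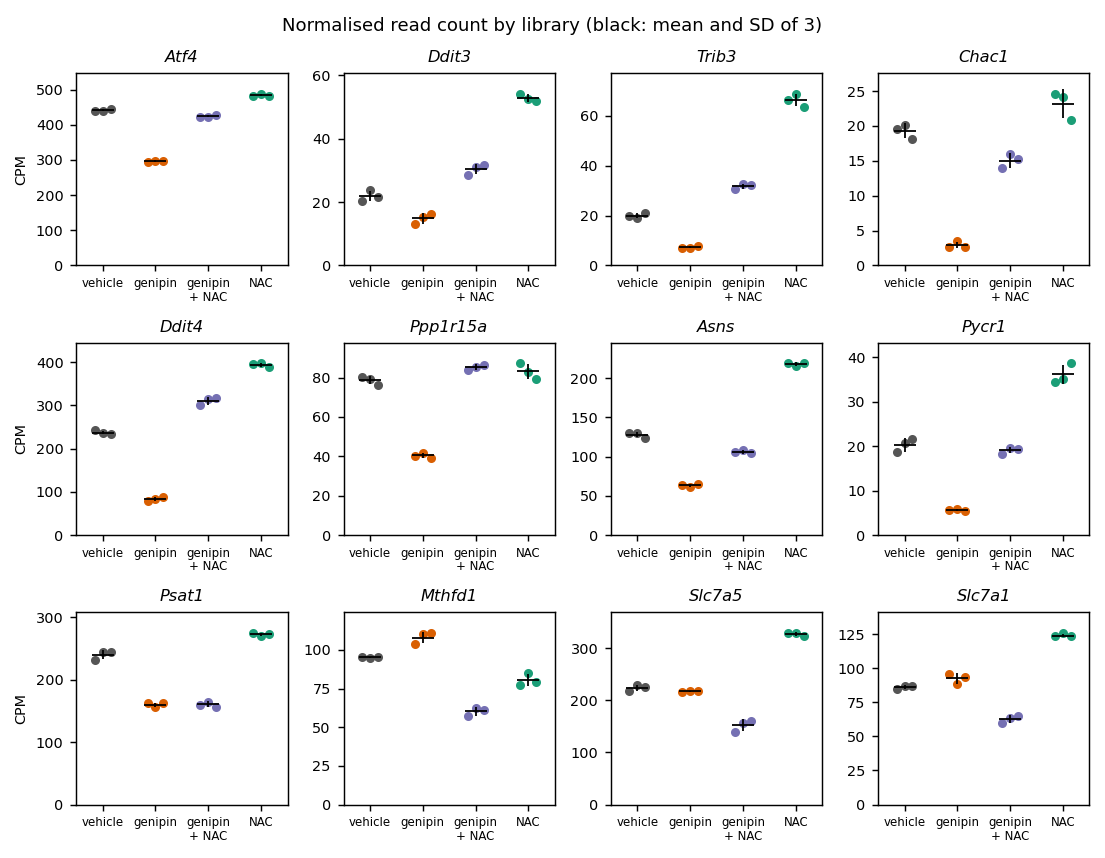
Normalised read count (CPM) in each of the 12 libraries for 12 of the genes, with 1 point per library and the mean and SD of the 3 libraries of each group in black; each vertical axis starts at 0. Ddit3, Trib3 and Ddit4 rise in the order genipin, vehicle, both compounds, NAC, Psat1 has genipin and both compounds at the same height, and Mthfd1, Slc7a5 and Slc7a1 are lowest with both compounds.

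With genipin 6 of the 8 serine enzymes were lower and 1 higher (median -0.34, against -0.92 for the 16 stress genes, a difference that was not tested), and with both compounds all 8 lay below vehicle. The 3 enzymes that make serine from a glycolytic intermediate are Phgdh, Psat1 and Psph. Phgdh (ENSMUSG00000053398.11, chromosome 3, 98313170 to 98339990) measured 439, 458 and 434 CPM in vehicle, 305, 302 and 306 under genipin, 300, 340 and 345 under both and 530, 517 and 506 under NAC. Genipin and both compounds overlapped, and each lay below vehicle (-0.55 ± 0.039 and -0.43 ± 0.039). The difference between them (0.11 ± 0.04, adjusted p = 0.0171) was lost without genipin replicate 2 (0.1, adjusted p = 0.0587) or without replicate 2 (0.086, adjusted p = 0.088) or 3 (0.0742, adjusted p = 0.122) of both compounds. Psat1 (chromosome 19, 15904678 to 15947337) measured 232, 244 and 244 CPM in vehicle, 162, 157 and 162 under genipin, 160, 165 and 157 under both and 275, 270 and 273 under NAC. Its fall was -0.58 ± 0.031 with genipin and -0.58 ± 0.031 with both compounds, and the difference between those 2 groups was 0.00172 ± 0.032 (adjusted p = 0.967). Psph, the last step, was 39.5, 39.4 and 37.0 CPM in vehicle, 36.2, 36.3 and 40.2 under genipin, 41.6, 41.2 and 40.8 under NAC and 29.0, 30.7 and 30.8 under both. It was lower with both compounds (-0.36 ± 0.055) and not called with genipin (-0.0381 ± 0.053, adjusted p = 0.559) or NAC (0.0923 ± 0.053, adjusted p = 0.143).

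Serine gives its carbon unit to folate through Shmt1 in the cytosol and Shmt2 in mitochondria. Shmt1 measured 54.6, 53.4 and 54.5 CPM in vehicle, 47.5, 43.6 and 41.1 under genipin, 32.2, 33.9 and 33.0 under both and 52.4, 56.7 and 57.9 under NAC. Shmt2 measured 231, 237 and 226 CPM in vehicle, 197, 195 and 197 under genipin, 155, 176 and 172 under both and 283, 278 and 270 under NAC. Both genes were lower with genipin (-0.3 ± 0.052 and -0.24 ± 0.037) and lower again with both compounds (-0.71 ± 0.054 and -0.46 ± 0.037), without overlap between those groups. NAC alone raised Shmt2 (0.26 ± 0.037) and was not called for Shmt1 (0.0407 ± 0.051, adjusted p = 0.515).

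The folate enzymes differed in the order of their groups. Mthfd1, the cytosolic enzyme (ENSMUSG00000021048.7, chromosome 12, 76255298 to 76319803), measured 95.4, 94.6 and 95.2 CPM in vehicle, 104, 110 and 111 under genipin, 57.0, 62.5 and 61.0 under both and 77.2, 84.8 and 79.4 under NAC. It was the serine-group gene that rose with genipin (0.19 ± 0.04, adjusted p = 0.000453), and it fell with NAC (-0.24 ± 0.041) and further with both (-0.66 ± 0.042). Mthfd2, the mitochondrial dehydrogenase, measured 126, 132 and 125 CPM in vehicle, 93.0, 94.3 and 103 under genipin, 98.1, 105 and 104 under both and 184, 176 and 183 under NAC. Its genipin libraries and those with both compounds overlapped (0.0804 ± 0.041, adjusted p = 0.0844), and NAC raised it (0.51 ± 0.039). Mthfd1l, the mitochondrial formate-releasing enzyme, measured 147, 140 and 144 CPM in vehicle, 111, 111 and 106 under genipin, 120, 123 and 122 under both and 131, 126 and 130 under NAC. It was lower than vehicle in all 3 treated groups, by 0.39 ± 0.033, 0.23 ± 0.032 with both and 0.15 ± 0.032 with NAC. The NAC call is the 1 of these that is lost without normalization factors (-0.0342, adjusted p = 0.378).

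The other amino acid enzymes moved together, with all 6 lower with genipin and all 6 higher with NAC. Asns, asparagine synthetase (ENSMUSG00000029752.12, chromosome 6, 7675169 to 7693254), measured 130, 130 and 124 CPM in vehicle, 63.6, 61.7 and 65.3 under genipin, 106, 109 and 104 under both and 219, 215 and 219 under NAC. The 4 groups did not overlap, and the 2 compounds changed it in opposite directions (-1.01 ± 0.035 with genipin, 0.76 ± 0.032 with NAC). With both compounds it stayed below vehicle (-0.27 ± 0.033). Pck2, the mitochondrial form of PEPCK (chromosome 14, 55540266 to 55551242), measured 76.1, 80.1 and 72.2 CPM in vehicle, 35.8, 34.0 and 35.7 under genipin, 64.6, 74.7 and 78.0 under both and 130, 126 and 125 under NAC. With both compounds it overlapped vehicle (-0.0676 ± 0.053, adjusted p = 0.289). Gpt2, the mitochondrial alanine transaminase, measured 14.9, 13.5 and 13.4 CPM in vehicle, 4.56, 6.74 and 5.0 under genipin, 11.9, 12.9 and 10.8 under both and 36.2, 34.6 and 34.5 under NAC. Its value for both compounds against vehicle (-0.24 ± 0.093, adjusted p = 0.0359) was lost without vehicle replicate 1 (-0.19, adjusted p = 0.15), vehicle replicate 2 (-0.26, adjusted p = 0.051) or replicate 3 of both compounds (-0.17, adjusted p = 0.182).

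Proline synthesis runs through Aldh18a1 and ends with Pycr1. Aldh18a1 measured 165, 169 and 172 CPM in vehicle, 122, 119 and 120 under genipin, 142, 143 and 146 under both and 247, 242 and 244 under NAC. Pycr1 (chromosome 11, 120635712 to 120643769) measured 18.6, 20.6 and 21.6 CPM in vehicle, 5.53, 5.8 and 5.36 under genipin, 18.2, 19.6 and 19.3 under both and 34.5, 35.1 and 38.6 under NAC. The fall with genipin was deeper for Pycr1 (-1.87 ± 0.083) than for Aldh18a1 (-0.49 ± 0.03), a difference between the 2 genes that was not tested. With both compounds Pycr1 overlapped vehicle (-0.0927 ± 0.069, adjusted p = 0.262) and Aldh18a1 stayed below it (-0.23 ± 0.029). Cth, which releases cysteine from cystathionine (ENSMUSG00000028179.12, chromosome 3, 157894248 to 157925077), measured 3.76, 2.92 and 3.97 CPM in vehicle, 0.503, 0.134 and 0.583 under genipin, 3.23, 2.19 and 3.17 under both and 7.96, 9.37 and 8.22 under NAC. The genipin group held 32 counts against 270 with vehicle (-3.06 ± 0.28), and Cth rose with NAC (1.26 ± 0.17).

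The transporters rose together with NAC and were lowest with both compounds in 3 cases. Slc7a5, the light chain of LAT1 (ENSMUSG00000040010.10, chromosome 8, 121881150 to 121907694), measured 218, 229 and 226 CPM in vehicle, 216, 217 and 218 under genipin, 139, 157 and 161 under both and 329, 329 and 323 under NAC. It was not called with genipin (-0.0464 ± 0.04, adjusted p = 0.324), rose with NAC (0.54 ± 0.039) and fell with both (-0.55 ± 0.04, adjusted p = 1.67e-10). Its partner Slc3a2, the CD98 heavy chain (chromosome 19, 8706882 to 8723369), measured 237, 233 and 236 CPM in vehicle, 176, 180 and 177 under genipin, 229, 247 and 250 under both and 336, 336 and 333 under NAC. The chains of the LAT1 dimer thus had different patterns: the heavy chain fell with genipin (-0.4 ± 0.032) and overlapped vehicle with both compounds (0.0443 ± 0.031, adjusted p = 0.235).

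Slc7a1, the arginine and lysine transporter CAT1 (ENSMUSG00000041313.14, chromosome 5, 148327410 to 148399904), was likewise highest with NAC and lowest with both compounds. It measured 84.6, 87.1 and 86.9 CPM in vehicle, 95.8, 88.4 and 93.8 under genipin, 59.5, 63.2 and 65.1 under both and 124, 126 and 124 under NAC. NAC raised it by 0.53 ± 0.038 and both compounds lowered it by 0.46 ± 0.039 on the log2 scale. The small genipin value (0.1 ± 0.038, adjusted p = 0.0227) was lost without vehicle replicate 1 (0.0925, adjusted p = 0.0817), genipin replicate 1 (0.0821, adjusted p = 0.112) or genipin replicate 3 (0.0987, adjusted p = 0.0642). Slc1a5, the glutamine transporter ASCT2, measured 94.5, 94.6 and 93.3 CPM in vehicle, 101, 102 and 106 under genipin, 75.2, 85.6 and 88.4 under both and 109, 105 and 105 under NAC. Its genipin value (0.13 ± 0.044, adjusted p = 0.0178) was lost without vehicle replicate 3 (0.12, adjusted p = 0.0518) or genipin replicate 3 (0.11, adjusted p = 0.0736), and both compounds lowered it (-0.18 ± 0.045, adjusted p = 0.0979 with length offsets). Leaving out genipin replicate 3 therefore took the number of members higher with genipin from 4 to 2.

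Slc1a4 and Slc38a2 completed the transporters. Slc1a4, the neutral amino acid and serine carrier ASCT1, measured 15.4, 14.6 and 18.4 CPM in vehicle, 7.35, 8.17 and 6.53 under genipin, 13.8, 12.9 and 14.0 under both and 27.6, 30.2 and 29.5 under NAC. It was the transporter that fell most with genipin (-1.15 ± 0.094) and rose with NAC (0.84 ± 0.079). For both compounds against vehicle it gave -0.25 ± 0.086 (adjusted p = 0.015), lost without vehicle replicate 3 (-0.14, adjusted p = 0.174) or replicate 2 of both compounds (-0.22, adjusted p = 0.0594). Slc38a2, the carrier SNAT2, measured 88.5, 89.8 and 87.3 CPM in vehicle, 86.7, 83.7 and 87.2 under genipin, 95.3, 96.7 and 93.7 under both and 125, 129 and 127 under NAC. NAC raised it (0.52 ± 0.032) and genipin was not called (-0.0438 ± 0.033, adjusted p = 0.259). The small value for both compounds (0.1 ± 0.033, adjusted p = 0.00904) was lost without the filter on low counts (adjusted p = 0.0572).

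The interaction asks whether genipin acted differently with NAC than without it, as the log2 fold change of both compounds against NAC minus that of genipin against vehicle. It was called for 28 of 36 members, 15 positive and 13 negative, while 51.4% of all tested genes were called (27.4% positive, 24.0% negative). At least 1 log2 unit was called for 7 positive members against 6.72% of all genes, and for 2 negative members against 3.14% of all genes. Without normalization factors the members split into 13 positive and 19 negative, and over all genes positive calls fell from 53.3% to 35.3% of calls as the median of all genes moved by -0.14. Of the 4 roles 3 went apart with TMM factors, with RLE factors and without factors: stress genes were 11 positive and 2 negative (10 and 4 without normalization factors), serine enzymes 1 and 6 (1 and 7), and transporters 0 and 4 (0 and 5). The direction of the other amino acid enzymes depended on the scaling, with 3 positive and 1 negative (median 0.14) against 2 positive and 3 negative (median -0.00228) without normalization factors. A positive value here means that genipin lowered a gene less, or raised it more, in the presence of NAC.

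Among stress genes the interaction was largest for Vldlr (6.24 ± 0.8, resting on 1 count with genipin), Nupr1 (2.16 ± 0.42), Chac1 (2.1 ± 0.14), Eif4ebp1 (1.39 ± 0.089), Ddit4 (1.17 ± 0.051) and Ppp1r15a (1.0 ± 0.058). For Chac1 genipin gave -2.73 ± 0.11 without NAC and -0.62 ± 0.081 with it. Atf4 itself had 0.39 ± 0.036, since genipin lowered it by 0.58 without NAC and by 0.19 with it on the log2 scale. Ddit3 (-0.23 ± 0.1, adjusted p = 0.0667), Cebpg (-0.16 ± 0.084, adjusted p = 0.116) and Cebpb (0.33 ± 0.21, adjusted p = 0.213) were not called, and Atf5 (-0.55 ± 0.12) and Sesn2 (-0.33 ± 0.07) were negative. Eif2ak4 (0.22 ± 0.081, adjusted p = 0.0282) lost its call without vehicle replicate 1 (0.21, adjusted p = 0.0566), vehicle replicate 2 (0.2, adjusted p = 0.0697), genipin replicate 2 (0.16, adjusted p = 0.103) or NAC replicate 2 (0.18, adjusted p = 0.0843).

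For transporters the called interactions were all negative, for Slc7a1, Slc7a5, Slc1a5 (-0.48 ± 0.063) and Slc38a2 (-0.37 ± 0.046). Slc38a2 was not at its lowest with both compounds, while the other 3 were. Slc7a1 had -1.09 ± 0.054 (adjusted p = 3.1e-13) and Slc7a5 -1.05 ± 0.056 (adjusted p = 1.01e-12): genipin moved Slc7a5 by -0.0464 without NAC and by -1.1 with it. Slc3a2 (-0.0661 ± 0.044, adjusted p = 0.224) and Slc1a4 (0.0495 ± 0.12, adjusted p = 0.769) were not called. Of the serine enzymes, Mthfd1 had the largest negative value (-0.6 ± 0.059) and Mthfd1l a positive one (0.31 ± 0.046). Of the other enzymes, Cth (1.5 ± 0.35) and Pycr1 (0.95 ± 0.11) were positive, Aldh18a1 was negative (-0.28 ± 0.041), and Asns gave -0.0236 ± 0.048 (adjusted p = 0.707), so that genipin took about 1 log2 unit off Asns with NAC (-1.04 ± 0.033) and without it (-1.01 ± 0.035).

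**Figure D3:**
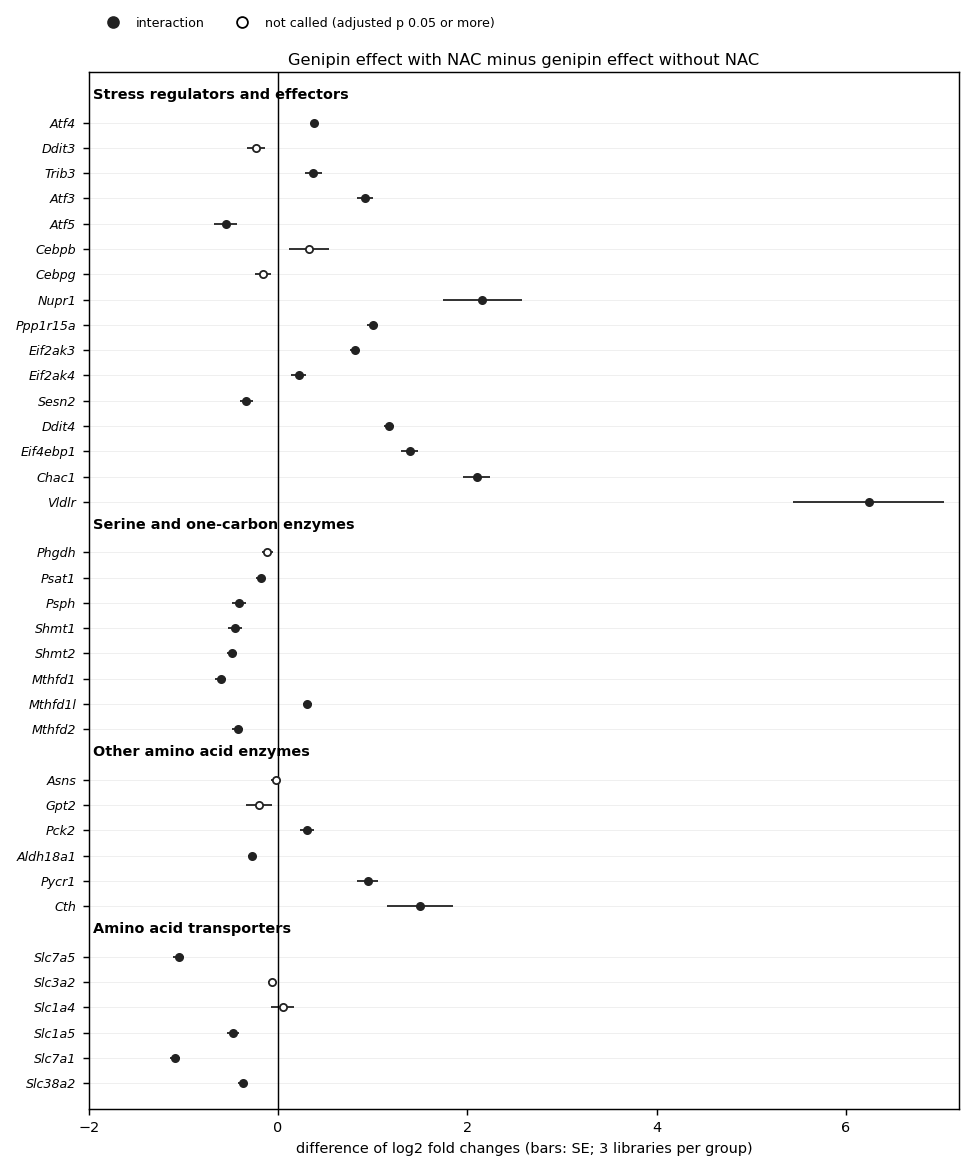
Interaction of genipin and NAC for the 36 genes, as the difference of 2 log2 fold changes (bars are SE, 3 libraries per group; open points were not called at adjusted p 0.05). Chac1, Eif4ebp1 and Ddit4 lie between 1.17 and 2.1, 6 of 8 serine enzymes are called left of 0, and Slc7a5 and Slc7a1 lie near -1.

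ATF4 with a C/EBP partner binds a composite element, and its letters were searched for in the RefSeq promoter windows (GRCm38.p6, the mm10 assembly), 250 bases before to 50 after each start. The pattern was TGATGNAA on both strands. Of the 36 members 32 had a window, and 9 of those (28.1%) held the pattern, against 1219 of 27025 genes with a window (4.51%). The members were listed as genes of the ATF4 response, so their higher share may follow from that choice and is not independent evidence. It was present in 5 of 15 stress genes (Atf3, Chac1, Nupr1, Trib3, Vldlr), 3 of 5 other amino acid enzymes (Asns, Pck2, Pycr1), 1 of 4 transporters (Slc1a4) and 0 of 8 serine enzymes. Slc7a5, Slc1a5, Cth and Eif4ebp1 had no window. The 9 genes with the pattern were among the 28 members lower with genipin than with vehicle (31.0% of all tested genes were lower), with Asns the least of the 9 (-1.01). Ddit4 (-1.51) and Gpt2 (-1.37) also fell, and their windows did not hold the pattern. These are matches of letters in 1 window per start, not measured binding sites, and a missing match says only that the letters are not in that window.

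The stretches around 7 of the matches are shown to let the letters be compared. All 9 genes with the pattern were among the 13 of 36 members called at least 2-fold lower with genipin. Such a fall was called for 6.69% of all tested genes. The members were listed as genes of the ATF4 response with earlier results of these data known. That share of all genes is therefore not a matched background for them. Cth and Eif4ebp1, also among the 13, had no window to search. Whether genes with the pattern fell more often than other genes was not tested. Trib3 and Slc1a4, whose matches do not lie wholly before the start, are named only. They read 5′ to 3′ on the strand of the gene, with the match in capitals; where the gene's strand holds the reverse complement, the capitals show that.
Atf3: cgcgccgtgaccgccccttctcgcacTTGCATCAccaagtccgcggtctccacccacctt
Chac1: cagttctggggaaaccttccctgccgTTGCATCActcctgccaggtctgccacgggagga
Nupr1: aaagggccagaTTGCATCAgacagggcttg
Vldlr: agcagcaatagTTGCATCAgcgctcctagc
Asns: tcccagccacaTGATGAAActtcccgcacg
Pycr1: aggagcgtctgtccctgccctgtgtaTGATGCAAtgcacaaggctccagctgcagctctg
Pck2: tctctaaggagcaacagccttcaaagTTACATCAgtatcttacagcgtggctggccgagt
Atf3 is at chr1:191183410-191183469, Chac1 at chr2:119351023-119351082, Nupr1 at chr7:126625562-126625591, Vldlr at chr19:27216809-27216838, Asns at chr6:7693214-7693243, Pycr1 at chr11:120643818-120643877 and Pck2 at chr14:55540137-55540196. Chac1, Pck2 and Vldlr lie on the plus strand and the others on the minus strand. Atf3, Chac1, Nupr1 and Vldlr share the same 8 letters (TTGCATCA), Pycr1 holds their reverse complement (TGATGCAA), and Asns (TGATGAAA) and Pck2 (TTACATCA) each have another base at the free position. For Nupr1, Vldlr and Asns the surrounding 60 bases overlap an exon annotated in GENCODE M21, and the stretch was limited to 30 bases, which may still hold exon sequence.

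**Figure D4:**
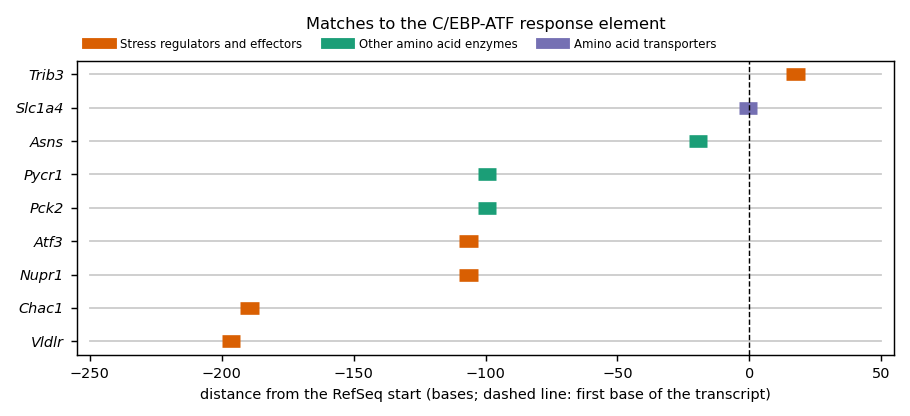
Place of each match to the composite element in the promoter windows of 9 genes, in bases from the RefSeq start (dashed line), coloured by role. Most matches lie upstream, at -200 (Vldlr), -193 (Chac1), -110 (Atf3 and Nupr1), -103 (Pck2 and Pycr1) and -23 (Asns), while that of Slc1a4 crosses the start and that of Trib3 lies after it.

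Neighbouring genes of the same pathways, in lists chosen with earlier results of these data known, were counted in the same fit. The counts of all these lists stand beside the shares of all tested genes. Those were 29.9% higher and 31.0% lower with genipin, 29.6% and 30.0% with NAC, and 28.5% and 28.9% with both compounds. For both compounds against NAC 26.6% were higher and 26.5% lower, and the interaction was positive for 27.4% and negative for 24.0%. The 12 aminoacyl-tRNA synthetases, which charge tRNA and include ATF4 targets, moved nearly as a block: 12 of 12 rose with NAC (median 0.31), 9 fell with genipin (median -0.17) and 11 were lower with both compounds than with vehicle (median -0.31). All 12 were lower with both compounds than with NAC, and 11 had a negative interaction. Aars, the alanyl synthetase, went from means of 198 CPM with vehicle and 190 with genipin to 273 with NAC and 152 with both (interaction -0.79 ± 0.043, adjusted p = 1.61e-12). Sars, the seryl synthetase, was the exception with a positive interaction (0.35 ± 0.04), named after its value was seen. In the eIF2 pathway (13 genes: kinases, eIF2 and eIF2B subunits and regulators) 4 were higher and 5 lower with genipin (median 0.0507). These genipin counts are near the shares of all tested genes. Eif2s2 was at -0.71 ± 0.038. With NAC 1 gene of the list was higher and 5 lower than with vehicle (median -0.0815). Both compounds gave 0 higher and 9 lower than vehicle (median -0.16). Compared with genipin, both compounds gave 4 higher and 9 lower (median -0.27), where 35.0% of all tested genes were higher and 34.3% lower.

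Of 9 tested genes among other ATF4 targets, 7 rose and 2 fell with NAC (median 0.44), and 2 rose and 6 fell with genipin (median -0.28). The mitochondrial protease gene Lonp1 went from a mean of 161 CPM with vehicle to 100 with genipin, 202 under both compounds and 272 under NAC. The secreted glycoprotein gene Stc2 went from 12.1 to 3.73, 24.3 and 20.4 CPM in the same order (interaction 1.96 ± 0.12), and the autophagy receptor gene Sqstm1 rose with genipin (0.68 ± 0.033). Slc7a11, the cystine importer, held 12 counts with genipin, 56 with vehicle, 48 under both compounds and 105 under NAC; it was chosen after its values were seen. Of 17 tested folate and methionine genes, 10 fell and 2 rose with genipin (median -0.23). Mat2a, which makes S-adenosylmethionine, was lower with NAC (-0.39 ± 0.03) and lower still with both compounds (-0.87 ± 0.03). Aldh1l2, a mitochondrial folate enzyme, had 1 count over the 3 genipin libraries, 60 with vehicle, 110 under both compounds and 555 under NAC (vehicle to genipin ratio 60.0, 95% interval 10.4 to 2410, counting error only).

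Other amino acid transporters were mixed with genipin (6 higher, 3 lower of 12, median 0.0814). Slc7a3, the cationic transporter CAT3, was lower (-2.93 ± 0.14) and Slc38a1, the glutamine carrier SNAT1, was higher (0.45 ± 0.028), with an interaction of -0.75 ± 0.04 for Slc38a1. Among 13 genes of amino acid sensing and mTORC1, Castor1, an arginine sensor, fell from a mean of 18.8 to 3.15 CPM with genipin (-2.58 ± 0.091) with 9.2 under both compounds and 22.4 under NAC. The list as a whole was split, 5 higher and 6 lower (median -0.11), beside 29.9% and 31.0% of all tested genes. Of 13 further amino acid enzymes, 9 fell and 0 rose with genipin (median -0.22), among them Bcat1, a branched-chain transaminase (-0.59 ± 0.053), and Got1, the cytosolic aspartate transaminase (-0.42 ± 0.044). Bcat1 was also lower with both compounds than with NAC (-1.07 ± 0.052).

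**Figure D5:**
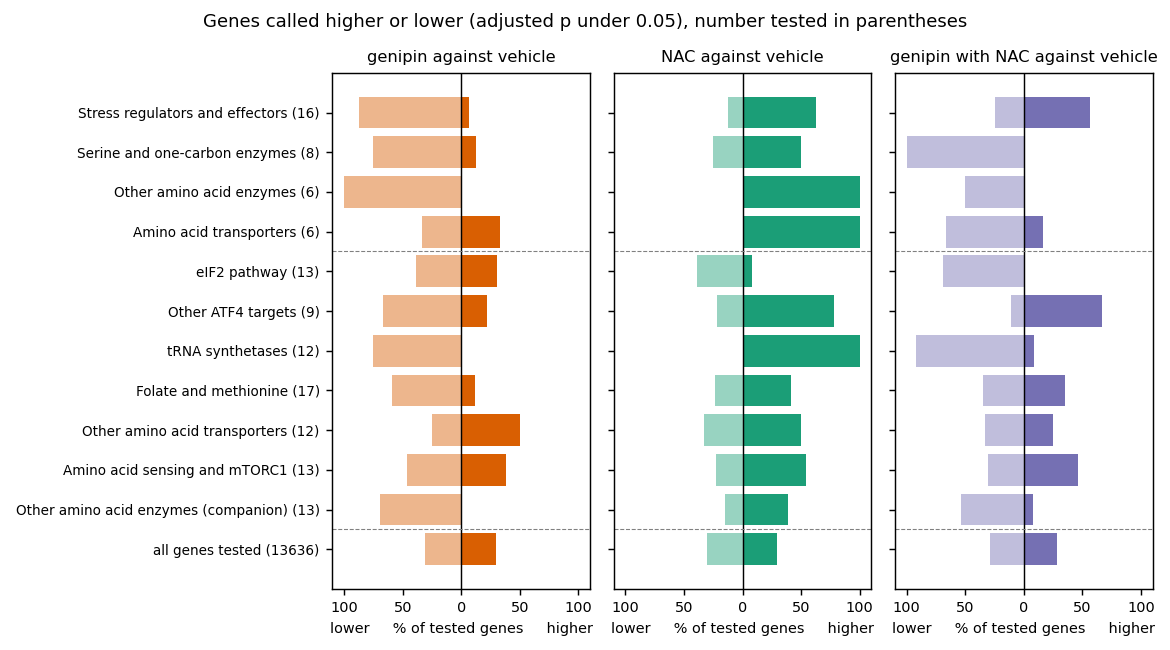
Share of tested genes called lower (left, pale) and higher (right, dark) against vehicle in each of 3 groups, for the 4 role groups, 7 lists of neighbouring genes and all 13636 tested genes, with the number tested in parentheses. All tested genes are near 30% in each direction, the 12 tRNA synthetases are all higher with NAC, and the 8 serine enzymes are all lower with both compounds.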

How the data were processed

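RNA of 12 libraries was read as 1 gene table per library. The authors deposited expected counts, and per the file headers also TPM, FPKM and effective lengths. Per the submitters' processing notes bcl2fastq, cutadapt 1.18, STAR 2.7.0f, RSEM 1.3.1 and mm10 were used, with no role given for each. All IDs match GENCODE M21, which gave the coordinates. The deposited TPM served to compare levels between genes, and the deposited FPKM were not used.

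Expected counts were rounded, genes of low counts removed with filterByExpr (13636 of 55450 kept), and totals scaled by TMM factors (0.961 to 1.05). One model of 4 group means was fitted over 12 libraries with edgeR 4.0.16 under R 4.3.3 (8 residual and 12.6 prior degrees of freedom). Contrasts were tested with its quasi-likelihood F test, Benjamini-Hochberg adjustment and a threshold of 0.05. An SE is the absolute log2 fold change over the square root of F, and understates the error of groups with few counts. The common biological coefficient of variation was 0.0393. A library without a read allows up to 3 counts, between 0.0965 and 0.144 CPM, for counting error only. The steps were tested on simulated data.

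The members and lists were chosen with earlier results of these data known. Every member may be named. From each list of neighbouring genes, up to 3 genes with the smallest p in a described comparison were named, and others are marked as chosen after their values were seen. The naming rule asked for TPM by library, but CPM are printed: the median log2 TPM ratio to vehicle exceeded that of CPM by 0.133 (genipin), 0.2 (NAC) and 0.0645 (both compounds), so TPM would carry a shift shared by most genes. Ddit3 and Gcat have 2 gene models each, and the model with more counts was used. Alternatives were DESeq2 1.42.0, limma-voom (limma 3.58.1), RLE factors, no normalization factors, no filter, a mean of at least 5 CPM, a change of at least 2-fold, offsets from the deposited effective lengths, a replicate block, only the groups compared, and each library left out in turn. Plots used Python 3.11.15 with matplotlib 3.10.9.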

Additional observations from a re-analysis of the deposited data

Results flagged for a closer look

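For 28 of the 36 genes the effect of genipin differed between cells with NAC and cells without it, as tested by the interaction in edgeR's quasi-likelihood model (adjusted p under 0.05, 3 libraries per group, 51.4% of all tested genes called). Values are differences of log2 fold changes. Among stress genes they were 6.24 for Vldlr, 2.16 for Nupr1, 2.1 for Chac1, 1.39 for Eif4ebp1, 1.17 for Ddit4, 1.0 for Ppp1r15a, 0.92 for Atf3, 0.81 for Eif2ak3, 0.39 for Atf4, 0.37 for Trib3, 0.22 for Eif2ak4, -0.33 for Sesn2 and -0.55 for Atf5. Among serine and folate enzymes they were 0.31 for Mthfd1l, -0.18 for Psat1, -0.41 for Psph, -0.42 for Mthfd2, -0.46 for Shmt1, -0.48 for Shmt2 and -0.6 for Mthfd1. Other amino acid enzymes gave 1.5 for Cth, 0.95 for Pycr1, 0.31 for Pck2 and -0.28 for Aldh18a1. The transporters gave -0.37 for Slc38a2, -0.48 for Slc1a5, -1.05 for Slc7a5 and -1.09 for Slc7a1. Eif2ak4 lost its call when vehicle replicate 1 (0.21) or 2 (0.2), genipin replicate 2 (0.16) or NAC replicate 2 (0.18) was left out, and Eif2ak4 (0.0747) and Pck2 (0.16) lost it without normalization factors.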

How the results depend on the processing

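Of 216 results (36 genes in 6 comparisons), 187 were called. Under 21 settings, which do not include the rule of at least 2-fold given separately below, 0 of these changed sign and 17 lost the call at least once. These were, for both compounds against vehicle, Atf4, Gpt2, Nupr1, Ppp1r15a, Slc1a4, Slc1a5 and Slc38a2; for genipin against vehicle, Atf5, Slc1a5 and Slc7a1; for NAC against vehicle, Mthfd1l and Slc1a5; for both against NAC, Mthfd1l and Vldlr; for both against genipin, Phgdh; and for the interaction, Eif2ak4 and Pck2.

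Requiring at least 2-fold left, as higher and lower members with all genes called, 0 and 13 (1336) for genipin, 7 and 0 (1352) for NAC, 1 and 1 (1083) for both compounds, 13 and 0 (1995) for both against genipin, 1 and 7 (805) for both against NAC, and 7 and 2 (1345) for the interaction. Members higher with both compounds than with NAC numbered 1 with a mean of at least 5 CPM, where 32 members were tested, and 1 with length offsets. Members higher with genipin numbered 2 with length offsets and from 2 to 4 when 1 library was left out. Without normalization factors the median of all genes moved by 0.12 for NAC and -0.14 for the interaction, and the share of calls that were higher went from 49.7% to 67.5% (NAC), from 50.2% to 35.9% (both against NAC) and from 53.3% to 35.3% (interaction). NAC then gave 32 members higher and 3 lower, and the transporters' median with genipin changed sign to 0.0199.

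Signs turned only for uncalled values near 0. For both compounds against genipin, Psat1 gave -0.00766 with DESeq2, -0.00728 with RLE factors, -0.000258 without a filter, -0.0225 without normalization factors, -0.00224 with length offsets, and -0.0189 to 0.0205 with 1 library left out. Without normalization factors Psph (0.0269), Slc38a2 (0.0212) and Slc7a5 (0.0186) turned for genipin, Ppp1r15a (-0.0392) for both against NAC and Slc1a4 (-0.0949) for the interaction. For NAC, Sesn2 gave -0.00844 without a filter and -0.0286 to 0.0519 with 1 library left out, and with length offsets Shmt1 gave -0.0553 and Ppp1r15a -0.00864. With 1 library left out, Pck2 (both against vehicle) ranged from -0.13 to 0.00839, Eif2ak4 (both against NAC) from -0.0588 to 0.00129 and Slc1a4 (interaction) from -0.0648 to 0.13. The cause was not tested.

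With the replicate number as a block, 8246 genes were called for genipin, 8050 for NAC, 7768 for both compounds, 9373 for both against genipin, 7152 for both against NAC and 6958 for the interaction. The block changed 2 member calls, Atf4 for both compounds (adjusted p = 0.0616) and Mthfd1l for both against NAC (adjusted p = 0.0536). The values gave no sign that the numbers pair the libraries. Over 18 pairs with the same number, deviations from the group means correlated from -0.0751 to 0.0437. The best-correlated library of another group had the same number for 4 of 12. Whether libraries with the same number share a mouse, culture or day is not said, and these correlations cannot settle it. Depth limits Vldlr, Nupr1 and Cth, with 1, 13 and 32 counts over the genipin libraries.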
